A study of Mus musculus with 7 samples.

Results

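The enzymes and transporters described here carry glucose to pyruvate and lactate, pass pyruvate into mitochondria, or run the pentose phosphate pathway. They are 38 genes, looked up in the deposited expression table by their gene symbols, and all 38 were found among its 22880 genes. RNA was measured in the optic nerves of mice at postnatal day 14 (P14), labelled with the strain background C57Bl/6. The 4 control mice (CT) were FASN lox/lox, and the 3 conditional mutants (cMU) were olig2cre FASN lox/lox. By these labels both groups share the floxed allele of Fasn, the gene of fatty acid synthase, and the groups differ in the presence of Cre recombinase. The authors' methods allow for lox/lox or lox/wt controls in the developmental studies. Cre is driven by the promoter of Olig2, which is active in the oligodendrocyte (OL) lineage and can be active in other cells of that origin, and no mouse with Cre but without the floxed alleles was among the samples. Each sample was optic nerve tissue, so a value is a mean over OLs and their progenitors, astrocytes, microglia, vessels and meninges.

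In glycolysis, glucose is taken up, phosphorylated, split into triose phosphates and oxidised to pyruvate, with a yield of ATP and NADH. Pyruvate is then either reduced to lactate by lactate dehydrogenase or carried into mitochondria, where the pyruvate dehydrogenase complex turns it into acetyl-CoA. The pentose phosphate pathway branches off at glucose phosphate, and its oxidative arm gives NADPH, the reductant of fatty acid synthesis, whereas its non-oxidative arm exchanges sugars with glycolysis. In white matter, glia are known to export lactate through monocarboxylate transporters, and axons can take it up as a fuel.

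The libraries held 27452222 to 43462575 reads by the step size of low values, and transcripts of Mbp alone took 3.47% to 5.89% of the summed normalized counts. The mean level of Fasn was 204.7 ± 25.1 FPKM in the 4 control mice and 56.3 ± 11.3 FPKM in the 3 mutants (SD), which is 27.5% of the control level (log2 fold change -1.86, standard error (SE) 0.138, adjusted p = 0.00312, limma-trend). FPKM is the number of fragments scaled by transcript length and by library size, so levels of different genes can be set side by side on it. Fold changes are differences of log2(FPKM + 0.5), mutant minus control, tested with limma-trend over the 13866 genes that reached an FPKM of 0.5 in 3 or more samples. An adjusted p under 0.05 is called past the threshold. Y-linked transcripts were present in control samples 3 and 4 and mutant sample 3 and near 0 in the others, so mice of both sexes stood in each group. Mutant sample 2 held more skeletal muscle transcripts than the others (summed FPKM of 12 markers 86.4, against 3.98 to 8.33), and mutant sample 1 held the most meningeal transcripts (summed FPKM of 8 markers 5189, against 2026 to 3080).

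All 38 genes passed the filter on low values. Aldoc and Ldhb rose in mutant nerves, and Taldo1, Slc16a3 and Pdk3 fell. These 5 of 38 genes compare with 2.62% of all genes tested, 1.26% higher and 1.36% lower. The 38 genes were chosen with earlier results of these data known, so these shares are a description and do not test the list. Both groups stood apart without overlap for 5 genes that were higher (12.9% of all genes) and 9 that were lower (8.26% of all genes). At an unadjusted p under 0.05 there were 6 higher and 8 lower, against 15.9% and 8.5% of all genes. The log2 fold changes of the 38 genes ran from -0.74 to 0.63 with a median of 0.0587, beside 0.0478 over all genes tested, and 26 of them were positive. The summed FPKM of the 38 genes was 4370 to 4610 in control and 4452 to 4894 in mutant samples, which overlap. On the authors' normalized counts 1 of the 38 genes was higher and 4 were lower, and over all genes the split of 175 higher and 188 lower became 103 and 267. Leaving out 1 mouse changed the count of calls: it was 1, 0, 0 and 3 without control sample 1, 2, 3 and 4, and 4, 7 and 0 without mutant sample 1, 2 and 3. The deviations of same-numbered samples had r across genes of 0.168, 0.409 and 0.270 for numbers 1 to 3, against -0.353 to 0.205 for other pairs. Number 1 thus lay within the range of other pairs, and the labels do not say what a number stands for. With that number as a replicate block 4 genes were higher and 3 lower (890 and 269 over all genes). Pfkm (adjusted p = 0.0293, limma-trend) and Eno2 (adjusted p = 0.0269, limma-trend) were then past the threshold as well. Control sample 4 has no partner and adds nothing to the fold changes of that fit, and without it but with no block 3 genes passed. Samples 1 to 3 of both groups also matched in Y-linked transcripts, and with Y-linked expression as a term in place of the block, on all 7 samples, the same 7 genes passed, Pfkm at an adjusted p of 0.0438 and Eno2 at 0.0394 (limma-trend).

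**Figure D1:**
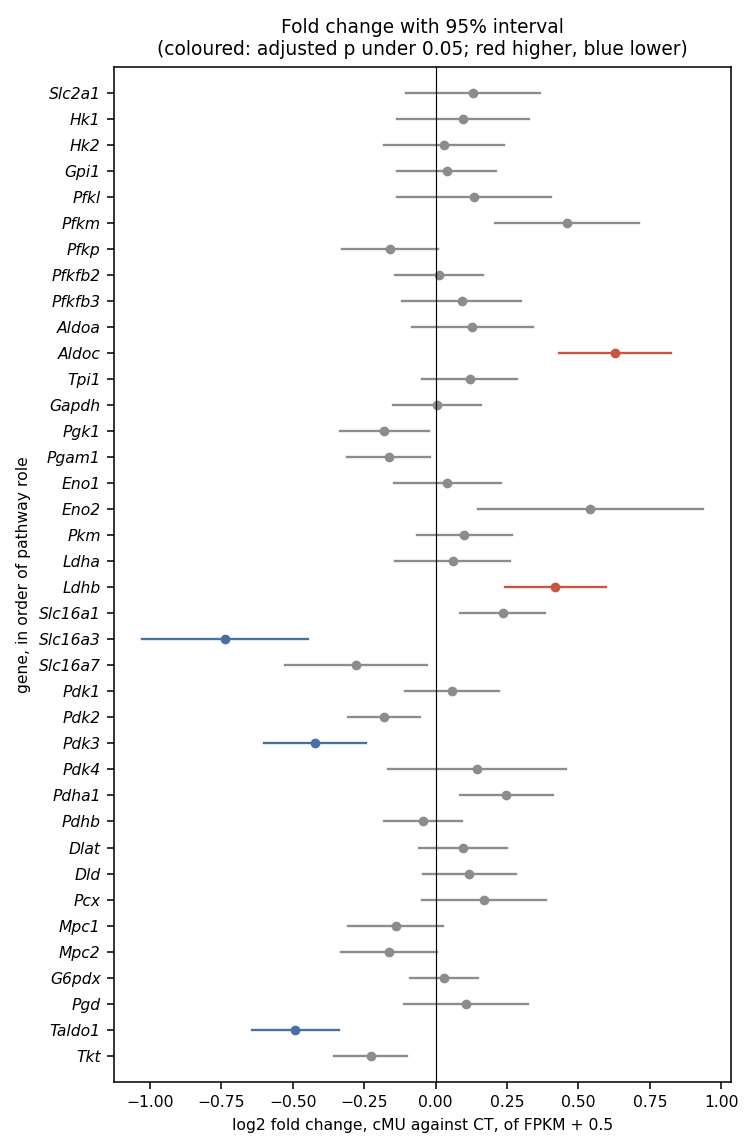
Log2 fold change of each of the 38 genes, mutant (cMU) against control (CT), on the log2(FPKM + 0.5) axis, with the 95% interval from limma-trend as a line, in order of pathway role from glucose uptake at the top to the pentose phosphate pathway at the bottom. Aldoc (0.63) and Ldhb (0.42) are the red points above 0, Slc16a3 (-0.74), Taldo1 (-0.49) and Pdk3 (-0.42) the blue points below 0, and grey points did not pass the threshold.

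The bases in front of the RefSeq start of the 5 genes past the threshold are shown here, since the comparison turns on these genes. Each line gives the 250 bases before the transcription start, 5′ to 3′ on the strand of the gene, from RefSeq on GRCm38.p6. Capitals mark GGGCGG, the GC box, and ACGTG, the core of a hypoxia response element, searched on both strands. Every E-box of the letters CACGTG also holds ACGTG. The windows were chr11:78322823-78323072 (plus strand) for Aldoc, chr6:142507958-142508207 (minus) for Ldhb, chr11:120948817-120949066 (plus) for Slc16a3, chrX:93832151-93832400 (minus) for Pdk3 and chr7:141391910-141392159 (plus) for Taldo1. The start in RefSeq lay 105, 0, 587, 51 and 39 bases, in that order, from the start of the gene in the deposited table. There Slc16a3 starts at base 120948480, so its whole window lies inside the gene as placed there. The windows of Aldoc and Pdk3 lie partly inside theirs.
Aldoc: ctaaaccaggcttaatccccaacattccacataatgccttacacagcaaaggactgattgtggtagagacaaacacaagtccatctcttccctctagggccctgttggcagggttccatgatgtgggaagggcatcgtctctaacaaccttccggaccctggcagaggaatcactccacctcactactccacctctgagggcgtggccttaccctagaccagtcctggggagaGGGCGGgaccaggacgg
Ldhb: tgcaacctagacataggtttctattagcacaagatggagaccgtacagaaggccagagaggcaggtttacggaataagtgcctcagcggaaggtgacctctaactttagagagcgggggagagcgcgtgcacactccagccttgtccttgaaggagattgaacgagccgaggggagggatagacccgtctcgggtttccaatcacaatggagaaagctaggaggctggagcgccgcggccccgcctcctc
Slc16a3: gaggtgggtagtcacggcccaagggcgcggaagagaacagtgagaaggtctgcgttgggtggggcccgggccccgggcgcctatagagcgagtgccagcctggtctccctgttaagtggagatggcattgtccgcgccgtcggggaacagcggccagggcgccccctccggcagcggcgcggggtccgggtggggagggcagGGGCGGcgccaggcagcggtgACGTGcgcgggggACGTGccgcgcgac
Pdk3: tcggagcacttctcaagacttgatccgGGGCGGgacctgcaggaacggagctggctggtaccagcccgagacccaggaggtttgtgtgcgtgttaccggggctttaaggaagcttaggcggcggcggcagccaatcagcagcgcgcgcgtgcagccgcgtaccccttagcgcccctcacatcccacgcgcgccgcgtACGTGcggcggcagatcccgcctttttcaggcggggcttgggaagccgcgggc
Taldo1: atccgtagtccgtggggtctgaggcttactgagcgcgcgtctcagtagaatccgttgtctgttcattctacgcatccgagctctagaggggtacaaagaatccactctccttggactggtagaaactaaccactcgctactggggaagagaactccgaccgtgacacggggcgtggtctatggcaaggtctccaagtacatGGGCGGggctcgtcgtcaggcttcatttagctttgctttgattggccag
GGGCGG was found in the windows of Aldoc, Slc16a3, Pdk3 and Taldo1, but not in that of Ldhb. ACGTG was found in the windows of Slc16a3 (2 matches) and Pdk3 (1 match), both lower in mutant nerves, and not in those of Aldoc, Ldhb or Taldo1. A RefSeq window was matched for 37 of the 38 genes. Among them 13 held ACGTG (35.1%, against 16.6% of the 32851 windows in the table), 5 held CACGTG (13.5% against 6.0%), 23 held GGGCGG (62.2% against 32.7%) and 15 held CCAAT (40.5% against 33.8%). Such matches are a description of the letters, and the base composition of the windows was not matched. Ldha had the most matches of ACGTG among them, with 5. Its RefSeq start, however, lay 4329 bases from the start of the gene in the deposited table, and that of Pfkfb2 lay 13205 bases away.

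Slc2a1 encodes GLUT1, the glucose carrier of the blood-brain barrier and of glia. It was 128.8 to 170.7 FPKM in control and 143.6 to 166.7 FPKM in mutant samples, which overlap (log2 fold change 0.13, adjusted p = 0.463, limma-trend). The hexokinases Hk1 and Hk2 trap glucose in the cell by phosphorylation, and Gpi1 converts glucose phosphate to fructose phosphate. Of the 2 hexokinases, Hk1 made up 90.9% to 92.6% of the summed FPKM in control and 91.0% to 93.6% in mutant nerves. Neither hexokinase nor Gpi1 passed the threshold, with log2 fold changes of 0.10, 0.0288 and 0.0386, and the last 2 turned to small negative values under other scalings of the samples. The 95% intervals of these entry steps were -0.14 to 0.33 for Hk1, -0.18 to 0.24 for Hk2 and -0.13 to 0.21 for Gpi1.

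Phosphofructokinase commits fructose phosphate to glycolysis and has muscle (Pfkm), liver (Pfkl) and platelet (Pfkp) isoforms. Pfkm was 41.72, 41.43, 45.44 and 46.71 FPKM in control samples 1 to 4 and 50.70, 60.00 and 72.36 FPKM in mutant samples 1 to 3. All mutant samples were above all control samples, with mutant sample 3 the highest. The log2 fold change of 0.46 (SE 0.111) did not pass the threshold (adjusted p = 0.0629, limma-trend). It did with the replicate block, with the Y-linked term and without mutant sample 1 (log2 fold change 0.58, adjusted p = 0.0364, limma-trend). Without mutant sample 2, which held muscle transcripts, the log2 fold change was 0.46 (adjusted p = 0.0709, limma-trend). Pfkm overlaps Senp1 on the opposite strand over 1156 bases, and whether the counting used the strand is not given in the sources used here.

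Pfkp was 51.19, 48.61, 54.66 and 54.21 FPKM in control and 51.19, 43.53 and 45.40 FPKM in mutant samples. Mutant sample 1 lay within the control range, and the log2 fold change was -0.16 (adjusted p = 0.223, limma-trend). Pfkl, with log2 fold change 0.13, overlapped between the groups. Within the family, Pfkm took 36.4% to 37.5% of the FPKM in control samples and 39.2%, 48.3% and 50.5% in mutant samples 1 to 3. The share of Pfkp was 43.3% to 45.5% in control and 31.7% to 39.6% in mutant samples. The summed FPKM of the 3 genes overlapped between the groups, so the order of Pfkp over Pfkm in every control sample was turned in mutant samples 2 and 3, whereas mutant sample 1 held both at nearly the same share. Pfkfb2 and Pfkfb3, which make and break down the sugar bisphosphate that activates phosphofructokinase, had log2 fold changes of 0.0128 and 0.09 with overlapping groups.

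Aldolase splits fructose bisphosphate into triose phosphates. Its C form, Aldoc, is known in the brain as an enzyme of astrocytes, and the A form, Aldoa, is found in most tissues. Aldoc was 346.6, 314.2, 343.8 and 338.6 FPKM in control samples 1 to 4 and 455.3, 534.6 and 573.6 FPKM in mutant samples 1 to 3. Every mutant sample was above every control sample, and the control samples lay close together. The mean of 335.8 ± 14.8 FPKM (SD, n = 4) in control nerves rose to 521.2 ± 60.3 FPKM (SD, n = 3), 155% of control. The log2 fold change of 0.63 (SE 0.0871, adjusted p = 0.0199, limma-trend) was the largest rise among the 38 genes. It ranged from 0.56 to 0.72 with 1 mouse left out, and the adjusted p was then 0.00715 to 0.0823 (limma-trend), over 0.05 without control sample 1, 2 or 3 or mutant sample 3.

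Aldoa was 314.2, 296.1, 323.1 and 317.6 FPKM in control and 389.2, 293.9 and 349.3 FPKM in mutant samples, so that mutant sample 2 was the lowest of all. Its log2 fold change was 0.13 (adjusted p = 0.427, limma-trend). Aldoc thus made up 51.5% to 52.5% of aldolase FPKM in control samples and 53.9%, 64.5% and 62.2% in mutant samples 1 to 3. The 2 genes summed to 610.3 to 666.9 FPKM in control and 828.5 to 922.9 FPKM in mutant nerves, with no overlap. Tpi1, which interconverts the triose phosphates, was 213.7 to 223.7 FPKM in control and 212.2 to 253.1 FPKM in mutant samples (log2 fold change 0.12).

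**Figure D2:**
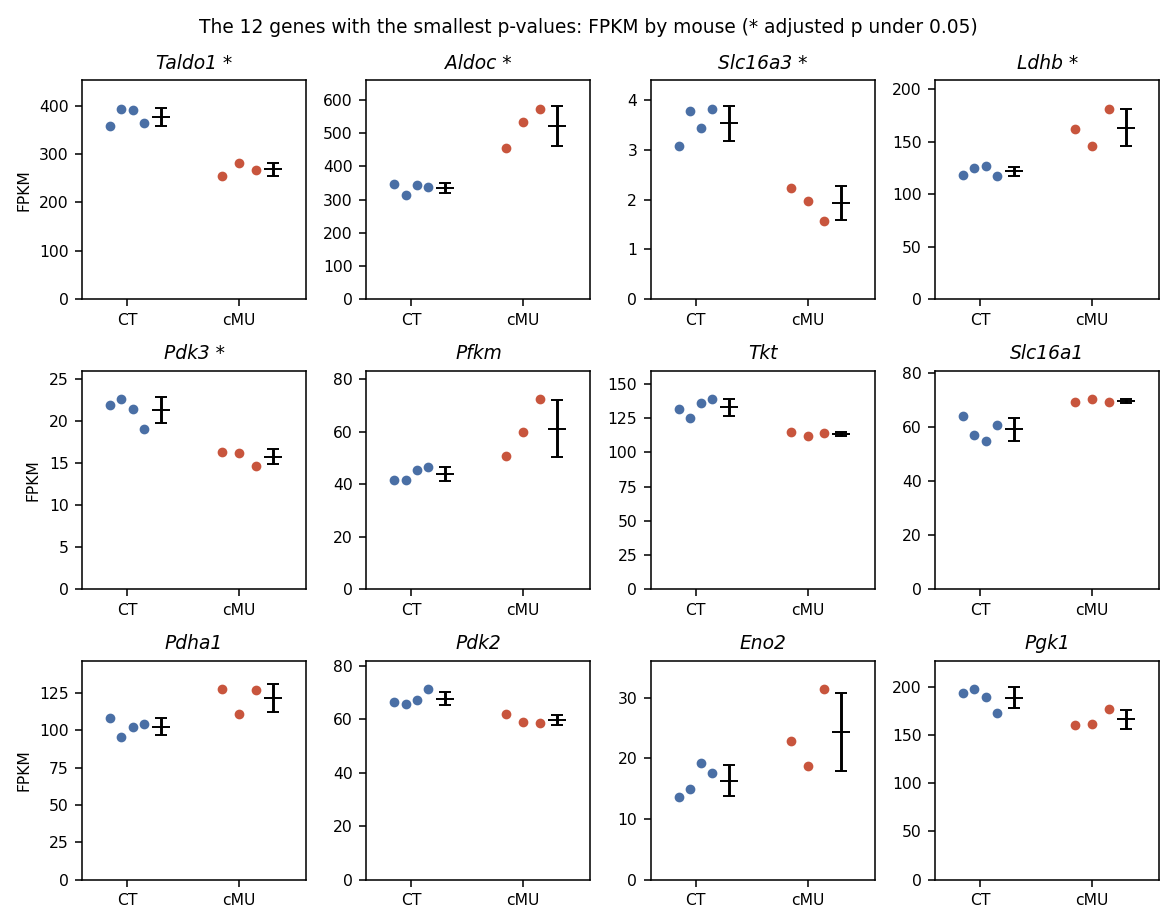
FPKM (y axis, from 0) of the 12 genes with the smallest p-values in each mouse, control (CT, blue, n = 4) and mutant (cMU, red, n = 3), with the mean and SD as black bars beside the points. An asterisk marks the 5 genes past the threshold; in Eno2 and Pgk1 the groups overlap, and in the other 10 they do not.

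The pay-off phase runs from glyceraldehyde phosphate to pyruvate. Gapdh, its oxidising step and the most abundant of the 38 transcripts, was 816.6 ± 20.5 FPKM (SD, n = 4) in control and 820.6 ± 36.1 FPKM (SD, n = 3) in mutant nerves. Its log2 fold change of 0.00649 (95% interval -0.15 to 0.16) took either sign with the scaling of the samples. Pgk1, which makes ATP from bisphosphoglycerate, was 193.8, 197.2, 189.4 and 172.8 FPKM in control and 160.0, 161.2 and 177.2 FPKM in mutant samples. Mutant sample 3 reached above control sample 4, and the log2 fold change was -0.18 (adjusted p = 0.156, limma-trend). Pgam1, which moves the phosphate along the chain, was lower without overlap, at 90.0 to 99.9 FPKM in control and 79.8 to 89.6 FPKM in mutant samples (log2 fold change -0.16, adjusted p = 0.162, limma-trend).

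Enolase has a widespread form, Eno1, and a form known from neurons, Eno2. Eno2 was 13.54, 14.95, 19.20 and 17.66 FPKM in control and 22.81, 18.78 and 31.38 FPKM in mutant samples. Mutant sample 2 lay between control samples, and mutant sample 3 stood far above the rest, so that the log2 fold change of 0.54 had a SE of 0.174 (adjusted p = 0.113, limma-trend). Without mutant sample 3 it was 0.35, and without mutant sample 2 it was 0.71 and past the threshold (adjusted p = 0.0478, limma-trend). Eno1 was 326.1, 346.0, 369.3 and 355.2 FPKM in control and 342.0, 334.8 and 403.9 FPKM in mutant samples (log2 fold change 0.0413), and it shares sequence with a retrotransposed copy, Eno1b, listed at up to 3.84 FPKM. Eno2 took 3.99% to 4.94% of enolase FPKM in control and 5.31% to 7.21% in mutant samples. The 10 neuron markers summed to 57.5 to 75.8 FPKM in control and 71.2, 69.2 and 108.1 FPKM in mutant samples, with mutant sample 3 the highest there too. Pkm, the last step of the pathway, was 171.1 to 190.5 FPKM in control and 177.3 to 203.6 FPKM in mutant samples (log2 fold change 0.10).

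Lactate dehydrogenase is a tetramer of A subunits (Ldha), which are known to favour lactate formation, and B subunits (Ldhb), known to favour the conversion of lactate to pyruvate. Ldhb was 118.2, 124.6, 126.8 and 117.4 FPKM in control samples 1 to 4 and 162.5, 146.4 and 181.5 FPKM in mutant samples 1 to 3. The groups did not overlap, and mutant sample 2 was nearest to the controls. The control mean of 121.8 ± 4.66 FPKM (SD, n = 4) rose to 163.5 ± 17.6 FPKM (SD, n = 3), or 134%, with a log2 fold change of 0.42 (SE 0.0780, adjusted p = 0.0348, limma-trend). This call was the least stable of the 5: it passed in 8 of 18 alternative settings, among those that left out 1 mouse only without mutant sample 2, and it did not pass on the authors' normalized counts or with samples centred on their median.

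Ldha was 119.7, 119.0, 125.4 and 123.3 FPKM in control and 142.2, 108.4 and 132.8 FPKM in mutant samples, whose range held that of the controls (log2 fold change 0.0595, adjusted p = 0.721, limma-trend). The ratio of Ldha to Ldhb, which does not depend on the scaling of a sample, was 1.01, 0.955, 0.989 and 1.05 in control samples 1 to 4. In mutant samples 1 to 3 it was 0.875, 0.740 and 0.732. The transcripts of both subunits were thus about equal in control nerves, and Ldhb exceeded Ldha in every mutant nerve. The mean ratio of 1.00 ± 0.0401 (SD, n = 4) in control nerves compared with 0.782 ± 0.0804 (SD, n = 3) in the mutants (log2 difference -0.36, two-sided exact permutation test, p = 0.0571, the smallest p that 4 against 3 mice can give). This permutation test therefore cannot reach 0.05 in this design.

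Monocarboxylate transporters move lactate and pyruvate across the plasma membrane. Slc16a1 (MCT1) is known from OLs, endothelium and astrocytes, Slc16a3 (MCT4) from astrocytes and from cells with much glycolysis, and Slc16a7 (MCT2) from neurons. Slc16a3 was 3.076, 3.782, 3.444 and 3.828 FPKM in control and 2.241, 1.975 and 1.576 FPKM in mutant samples. It fell from 3.53 ± 0.349 (SD, n = 4) to 1.93 ± 0.335 FPKM (SD, n = 3), to 54.7% of control, without overlap. This was the largest change of the 38 genes (log2 fold change -0.74, SE 0.128, adjusted p = 0.0316, limma-trend). It was also the least abundant of them, with 74 to 256 reads in a sample, and among the fits that left out 1 mouse it passed only without mutant sample 1 or 2.

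Slc16a1 was 64.21, 57.02, 54.88 and 60.88 FPKM in control and 69.52, 70.47 and 69.21 FPKM in mutant samples. The mutant samples lay close together and above all controls, but the log2 fold change of 0.24 did not pass the threshold (adjusted p = 0.0854, limma-trend) in any setting. Slc16a7 was 4.693, 3.885, 4.282 and 4.436 FPKM in control and 3.003, 3.796 and 3.655 FPKM in mutant samples, lower without overlap (log2 fold change -0.28, adjusted p = 0.163, limma-trend). Slc16a1 took 87.7% to 89.2% of the FPKM of the 3 transporters in control and 92.4% to 93.0% in mutant samples. The share of Slc16a3 was 4.27% to 5.85% in control and 2.12% to 3.00% in mutant samples, and their sum did not overlap either, at 62.6 to 72.0 and 74.4 to 76.2 FPKM.

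**Figure D3:**
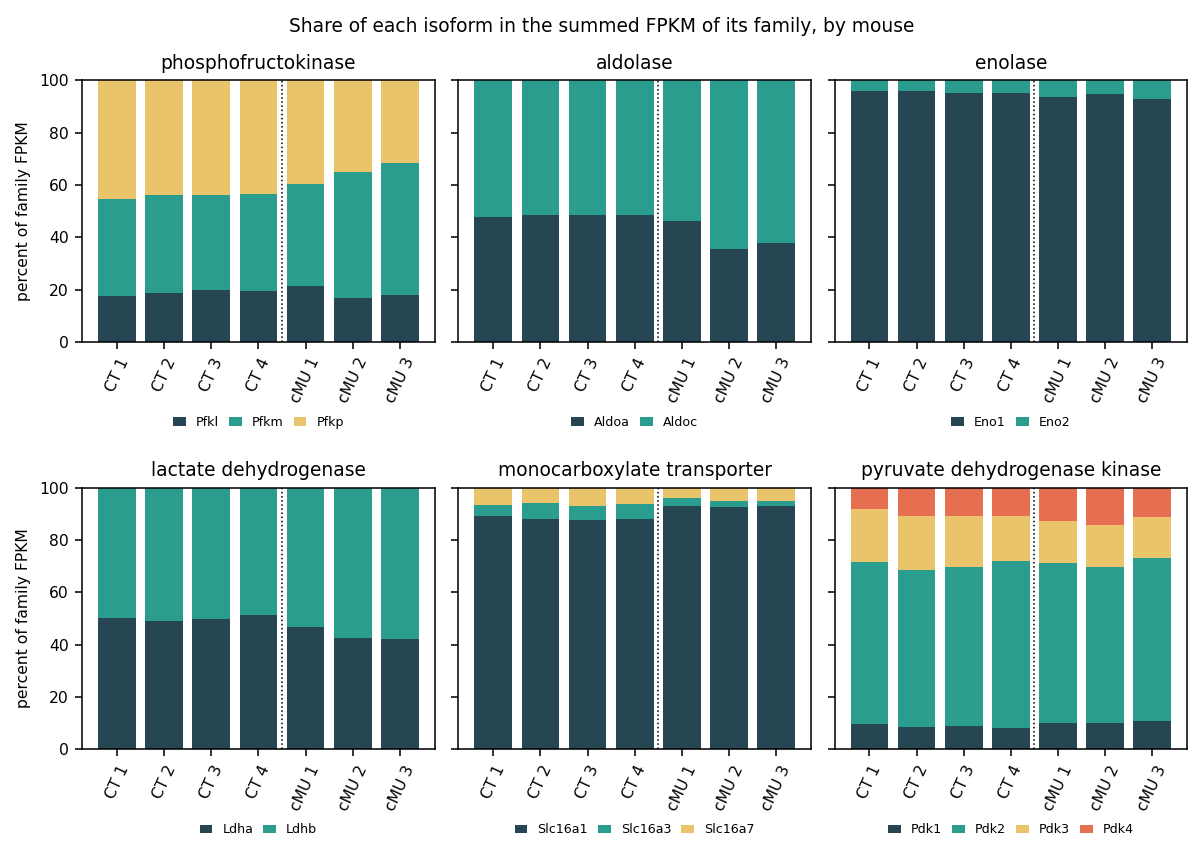
Percent of the summed FPKM of an enzyme or transporter family (y axis) that each isoform held in each mouse, 4 control (CT) and 3 mutant (cMU) samples. The share of Aldoc was highest in mutant samples 2 and 3 (64.5% and 62.2%), that of Pfkm in mutant sample 3 (50.5%), and the share of Ldhb was 48.8% to 51.1% in control and 53.3% to 57.7% in mutant samples.

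Pyruvate dehydrogenase kinases switch off the pyruvate dehydrogenase complex by phosphorylation. Pdk3 was 21.93, 22.58, 21.45 and 19.03 FPKM in control and 16.35, 16.15 and 14.69 FPKM in mutant samples, which did not overlap. It fell from 21.2 ± 1.55 (SD, n = 4) to 15.7 ± 0.906 FPKM (SD, n = 3), to 74.0% of control (log2 fold change -0.42, SE 0.0785, adjusted p = 0.0349, limma-trend). Pdk3 is on chromosome X, and with Y-linked expression as a term in the fit its log2 fold change was -0.44 (adjusted p = 0.0394, limma-trend). Among the fits that left out 1 mouse it passed only without control sample 4 or mutant sample 2.

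Pdk2, the most abundant of the kinases, was 66.60, 65.75, 67.37 and 71.22 FPKM in control and 61.83, 58.94 and 58.44 FPKM in mutant samples. No mutant sample reached the lowest control, and the log2 fold change of -0.18 did not pass the threshold (adjusted p = 0.104, limma-trend). Pdk1 and Pdk4 overlapped between the groups, with log2 fold changes of 0.0579 and 0.14. The 4 kinases summed to 107.7 to 111.6 FPKM in control and 93.4 to 101.3 FPKM in mutant samples.

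The complex itself is built of a catalytic E1 part (Pdha1, Pdhb), E2 (Dlat) and E3 (Dld). Pdha1 was 108.3, 95.24, 102.4 and 104.0 FPKM in control and 127.4, 111.0 and 127.2 FPKM in mutant samples, higher in all (log2 fold change 0.25, adjusted p = 0.0940, limma-trend). Its E1 partner Pdhb was 45.56, 45.58, 44.64 and 41.66 FPKM in control and 41.80, 42.14 and 45.03 FPKM in mutant samples (log2 fold change -0.0446). Dlat and Dld overlapped between the groups, with log2 fold changes of 0.0967 and 0.12, so none of the 4 genes passed. Pcx, which makes oxaloacetate from pyruvate, is known from astrocytes and had a log2 fold change of 0.17 (adjusted p = 0.306, limma-trend). The mitochondrial pyruvate carrier consists of Mpc1 and Mpc2, and both were lower in all mutant samples than in any control sample. Mpc1 was 203.8 to 219.8 FPKM in control and 170.3 to 203.6 FPKM in mutant samples, and Mpc2 was 12.9 to 14.7 and 12.1 to 12.7 FPKM. Their log2 fold changes of -0.14 and -0.16 did not pass (adjusted p = 0.271 and 0.216, limma-trend).

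In the pentose phosphate pathway, Taldo1 of the non-oxidative arm passed the threshold and Tkt, G6pdx and Pgd did not. The NADPH-producing enzymes G6pdx (glucose phosphate dehydrogenase) and Pgd (phosphogluconate dehydrogenase) had log2 fold changes of 0.0286 (95% interval -0.0903 to 0.15) and 0.11 (-0.11 to 0.32). G6pdx was 40.8 to 42.4 FPKM in control and 41.2 to 43.2 FPKM in mutant samples, the narrowest spread of the 38 genes in controls (SD 1.88% of the mean). Its gene overlaps Ikbkg on the opposite strand over 19712 bases.

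The non-oxidative arm is run by transaldolase (Taldo1) and transketolase (Tkt). Taldo1 was 358.1, 393.3, 391.3 and 364.0 FPKM in control samples 1 to 4 and 253.7, 282.2 and 267.8 FPKM in mutant samples 1 to 3. The groups lay far apart against their spread, and the mean fell from 376.7 ± 18.2 (SD, n = 4) to 267.9 ± 14.3 FPKM (SD, n = 3), to 71.1% of control. Its log2 fold change of -0.49 (SE 0.0671, adjusted p = 0.0197, limma-trend) had the smallest p of the 38 genes, and it passed in 15 of 18 alternative settings. It did not pass without control sample 2 or 3 or mutant sample 3, when the adjusted p was 0.0571, 0.0854 and 0.0736 (limma-trend). In control nerves Gapdh was the only one of the 38 genes with a higher mean FPKM than Taldo1, whereas in mutant nerves Aldoc, Eno1 and Aldoa exceeded it too.

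Tkt was 131.5, 125.2, 136.3 and 139.0 FPKM in control and 114.6, 111.8 and 113.9 FPKM in mutant samples, lower in all of them. Its log2 fold change of -0.23 (SE 0.0569) did not pass the threshold (adjusted p = 0.0681, limma-trend), and it did on normalized counts, with median-of-ratios scaling and with samples centred on their median, where the lowest adjusted p was 0.0419.

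**Figure D4:**
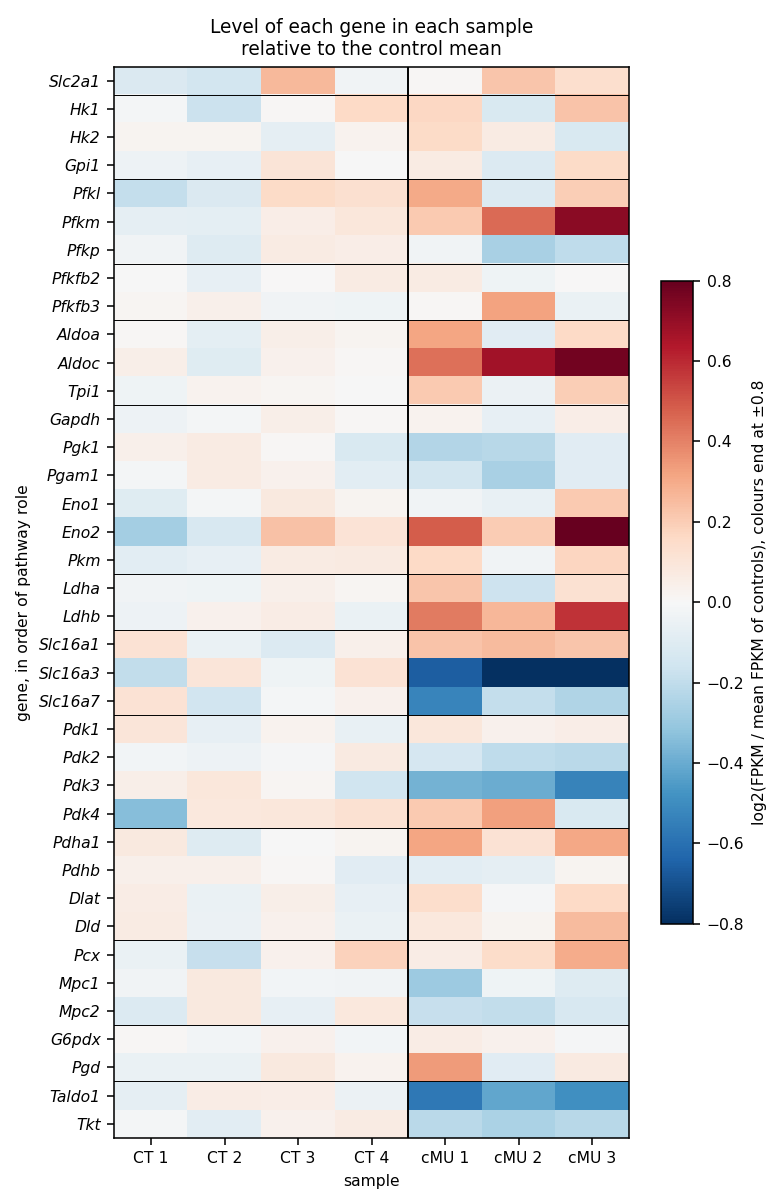
Level of each of the 38 genes (rows, in order of pathway role) in each mouse (columns, 4 CT and 3 cMU), as log2 of FPKM over the control mean, red above and blue below it. Slc16a1 (log2 fold change 0.24) is red and its neighbour Slc16a3 (-0.74) blue in all 3 mutant samples, and Aldoc (0.63) is the row with the strongest red across them.

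The cells of the nerve differ in these enzymes, and in bulk tissue fewer cells of a type and less RNA per cell cannot be told apart. Over all genes tested, 1.26% were higher and 1.36% lower past the threshold. At an unadjusted p under 0.05 (limma-trend) 15.9% were higher and 8.5% lower. Of 10 astrocyte markers all had positive fold changes and 3 passed the threshold, Aldh1l1, Gja1 and Slc1a2, and their summed FPKM was 2960 to 3408 in control and 3772 to 4731 in mutant samples. Of 10 OL markers 9 had negative fold changes and 2 passed, Mag and Cnp, with sums of 57675 to 65417 and 42249 to 54183 FPKM. With the replicate block neither passed, at an adjusted p of 0.0726 and 0.0605 (limma-trend). The 10 endothelial markers were all positive with none past the threshold (6 at an unadjusted p under 0.05), with sums of 213.6 to 257.1 and 274.3 to 303.6 FPKM. The 8 meningeal fibroblast markers were all positive with a median log2 fold change of 0.63, Slc13a4 passed, and their sums of 2026 to 2633 FPKM in control and 2655 to 5189 FPKM in mutant samples did not overlap. Of 8 OL progenitor markers 7 were negative and Cspg4 passed, with overlapping sums of 203.0 to 221.6 and 170.7 to 206.0 FPKM. The 8 pericyte and 10 microglia markers were all positive with none past the threshold (3 of each at an unadjusted p under 0.05, limma-trend), and the sums did not overlap for pericytes (279.7 to 373.9 and 375.1 to 543.0 FPKM) and did for microglia. Aldh1l1, Gja1, Slc1a2, Slc13a4 and Cspg4 passed with the replicate block as well, and each missed the threshold without control sample 1, 2 or 3 or mutant sample 3. Cspg4 missed it whichever mouse was left out (lowest adjusted p = 0.0506, limma-trend). No gene of the astrocyte, OL and endothelial lists was at 0 in any sample.

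Divided by the summed astrocyte markers of the same sample, Aldoc was 9.94% to 11.6% in control and 11.6% to 12.1% in mutant samples, and Ldhb was 3.45% to 4.28% and 3.17% to 4.31%, so that both overlapped between the groups, Aldoc only in that mutant sample 2 was just under control sample 3. Divided by the summed OL markers instead, they did not overlap, at 0.480% to 0.601% and 0.987% to 1.28% for Aldoc and 0.190% to 0.205% and 0.270% to 0.405% for Ldhb. Taldo1, divided by the summed OL markers, was 0.600% to 0.627% in control and 0.521% to 0.600% in mutant samples. It overlapped only in that mutant sample 1 (0.60049%) was just above control sample 4 (0.59991%). Pdk3 was 0.0314% to 0.0380% and 0.0298% to 0.0387% on that scale, with overlap. Divided by the summed astrocyte markers, both genes were lower without overlap, at 10.7% to 13.2% and 5.66% to 6.73% for Taldo1 and 0.558% to 0.731% and 0.310% to 0.433% for Pdk3. Slc16a3 did not overlap on either scale. Per OL markers it was 0.00533% to 0.00631% in control and 0.00352% to 0.00530% in mutant samples, and per astrocyte markers it was 0.0973% to 0.122% and 0.0333% to 0.0594%. Whether the makeup of the nerve accounts for the differences was not tested.

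**Figure D5:**
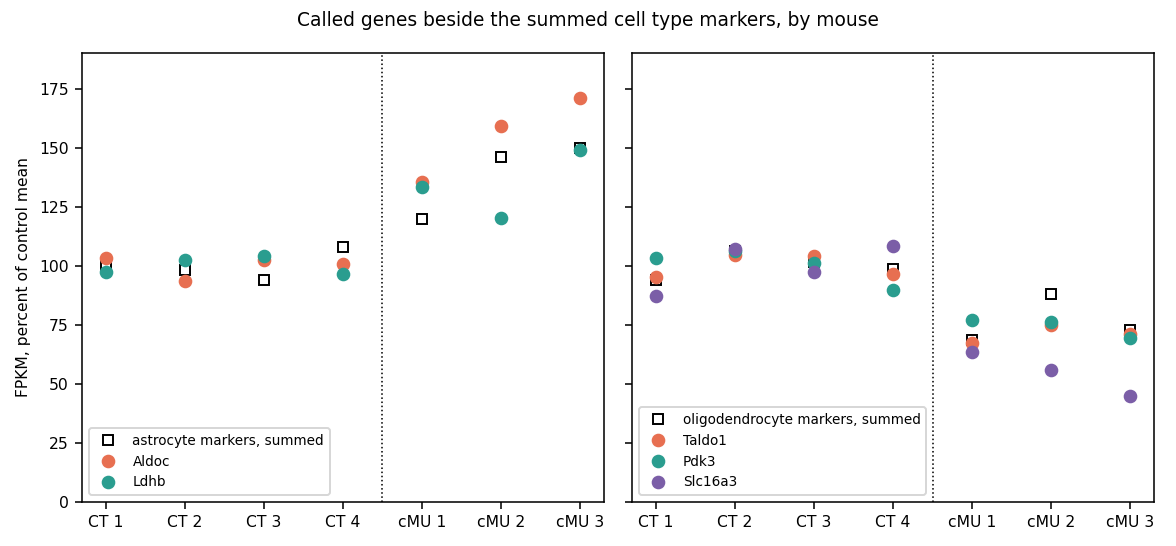
FPKM in each mouse as percent of the control mean, for Aldoc and Ldhb beside the summed astrocyte markers (left) and for Taldo1, Pdk3 and Slc16a3 beside the summed OL markers (right). Each gene stands beside the sum that changed in its own direction, so the shared direction is no result. Astrocyte markers were 119.6% to 150.0% and Aldoc 135.6% to 170.8% in mutant samples, and OL markers were 68.6% to 88.0%, Taldo1 67.4% to 74.9% and Slc16a3 44.6% to 63.4%.

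Genes next to these in metabolism were read from lists of the same kind. Past the threshold 1.26% of all genes tested were higher and 1.36% lower. Among genes of lactate, pyruvate and monocarboxylate handling, Bsg, the chaperone of Slc16a1 and Slc16a3 at the membrane, had no overlap but did not pass (log2 fold change 0.28, adjusted p = 0.0725, limma-trend). Emb, of the same list, had no overlap either and did not pass (log2 fold change 0.76, adjusted p = 0.121, limma-trend). Of the 13 tested genes of that list, 2 were higher and 0 lower without overlap, against 12.9% and 8.26% of all genes. Among 15 tested genes of the remaining pentose phosphate and NADPH enzymes, Nadk2, the mitochondrial NAD kinase, rose by 0.37 (adjusted p = 0.0480, limma-trend). Of 28 genes of the citrate cycle and its shuttles, Suclg2, a subunit of succinate-CoA ligase, rose by 0.48 (adjusted p = 0.0405, limma-trend). No gene of these 3 lists fell past the threshold. With the replicate block the adjusted p of Nadk2 was 0.0656 (limma-trend).

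Of 19 regulators of glycolytic genes, 2 rose past the threshold, beside 1.26% of all genes tested. Fold changes were positive in 17 of the 19 and negative in 2. Txnip, which restrains glucose uptake and is known as a target of the glucose-sensing factor MondoA, rose from 127.7 to 200.8 FPKM in control to 251.1 to 323.9 FPKM in mutant samples (log2 fold change 0.73, adjusted p = 0.0467, limma-trend). Ppargc1a, a coactivator of mitochondrial genes, rose by 0.54 (adjusted p = 0.0437, limma-trend). Hif1a, the oxygen-regulated activator of glycolytic genes, had a log2 fold change of 0.00208, which was negative under 3 scalings of the samples. With any one control sample or mutant sample 1 or 3 left out, none of these 4 genes outside the 38 passed, and without mutant sample 2 all 4 did. Over these 7 fits their log2 fold changes were 0.30 to 0.42 for Nadk2, 0.39 to 0.60 for Suclg2, 0.60 to 0.82 for Txnip and 0.44 to 0.60 for Ppargc1a. None of 13 tested hypoxia-inducible genes outside glycolysis passed (2 higher and 1 lower at an unadjusted p under 0.05, limma-trend). Without overlap 3 of these 13 were higher and 0 lower, against 12.9% and 8.26% of all genes. Likewise none of 8 glucose and fructose carriers passed (5 higher and 1 lower at an unadjusted p under 0.05, limma-trend). None of 15 tested genes among the other enzymes of glycolysis and gluconeogenesis did (3 higher and 1 lower at that level). Over all genes tested, 15.9% were higher and 8.5% lower at that level.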

How the data were processed

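Optic nerve RNA of 4 control and 3 mutant mice at P14 was sequenced in single end mode from a stranded mRNA kit. The authors cleaned the reads, aligned them with STAR 2.5.1b to GRCm38 with Ensembl annotation and estimated gene levels with RSEM 1.2.22. In the deposited table the FPKM values were derived by the authors from the estimated counts by gene length and library size, and the normalized counts, a signal per gene, were made by the authors by dividing those counts by a size factor whose method is not given in the sources used here. FPKM recomputed from normalized counts and lengths differed from the deposited values by 0.284% or less. The authors' own fold changes, p-values and FDR of mutant against control stand in the same table and were not used.

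Samples were grouped by their labels. The test was limma-trend (limma 3.58.1, R 4.3.3) on log2(FPKM + 0.5), with genotype as the only term, over the 13866 genes that reached 0.5 FPKM in 3 or more samples, and Benjamini-Hochberg adjustment over all of them. It was tested on simulated data. The 38 genes, their roles and the other lists were chosen with earlier results of these data known. Every one of the 38 genes is named. Values per sample are given for genes past the threshold, for the 12 smallest p-values and for an isoform of each, and from the lists of neighbouring metabolism and of cell markers genes past the threshold are named, with Fasn as the check of genotype. Other genes of those lists, Bsg and Hif1a, were named after their values were seen, and 1 gene is not reported here. Low normalized counts came in steps, of which 73.3% to 79.3% were whole within 0.02 of a read, too few for a count test. The steps served for depth and for reads per gene. The normalized counts themselves were also used as an alternative to FPKM in the limma-trend fit. Replicate numbers come from the labels, which do not say what they stand for. The deviations of same-numbered samples from their group means had r across genes of 0.168, 0.409 and 0.270, against -0.353 to 0.205 for other pairs. The first of these lay within the range of other pairs. Same-numbered samples were taken as pairs in a further fit, the replicate block. The limma-trend p-values set the difference between the groups against the spread between these mice, moderated over all genes tested. Promoter windows came from the RefSeq table on GRCm38.p6, and figures were drawn with matplotlib 3.10.9.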

Additional observations from a re-analysis of the deposited data

Results flagged for a closer look

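For 4 genes, 1 control sample stood apart from the other 3 controls by more than Dixon's critical value for 4 samples. Hk2 was 4.42 FPKM in control sample 3, below the other controls at 4.71 to 4.73 FPKM. Pdk4, the kinase known to be induced by fasting, was 8.846 FPKM in control sample 1, below the other controls at 11.9 to 12.2 FPKM. Mpc1 was 219.8 FPKM in control sample 2, above the other controls at 203.8 to 204.8 FPKM, and without it the gap to the highest mutant sample, at 203.6 FPKM, is smaller than the spread of those 3 controls. Cnp, the OL marker, was 2580 FPKM in control sample 1, below the other controls at 2751 to 2783 FPKM. Chance flags about 1 group in 20, and no group of 3 was examined in this way. The number of groups examined is not given here, so the 4 flags cannot be set against that share.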

How the results depend on the processing

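The 5 calls kept their direction in all 18 alternative settings. The number of the 38 genes past the threshold was 2 with no filter on low values and 2 without the mean trend, and it ranged from 0 to 7 with 1 mouse left out. The number of all genes past the threshold was 95 with no filter, 57 without the mean trend, 203 with Y-linked expression as a term (an alternative chosen after seeing the data) and 1159 with the replicate block, and 6 to 907 with 1 mouse left out. The median log2 fold change of the 38 genes moved with scaling, to -0.0178 on normalized counts, 0.0139 with median-of-ratios scaling and -0.0238 with samples centred on their median, where the median of all genes was -0.0262, 0.00552 and -0.0347. Of the 38 genes the paired fit, which also matches Y-linked status and leaves control sample 4 without a partner, changed the calls of Pfkm and Eno2 alone, as did the fit with the Y-linked term, and of the other genes named the paired fit lost Nadk2, Mag and Cnp. Uncalled genes near 0 took the other sign. On normalized counts, with median-of-ratios scaling and with centring, the log2 fold change was -0.0467, -0.0128 and -0.0537 for Hk2, -0.0393, -0.00724 and -0.0438 for Gpi1, -0.0645, -0.0314 and -0.0696 for Pfkfb2, -0.0716, -0.0395 and -0.0760 for Gapdh, -0.0369, -0.00466 and -0.0411 for Eno1, -0.0492, -0.0169 and -0.0539 for G6pdx, and -0.0762, -0.0434 and -0.0804 for Hif1a (-0.00874 with the replicate block). On normalized counts and with centring it was -0.0179 and -0.0229 for Ldha and -0.0176 and -0.0246 for Pdk1. With 1 mouse left out it ranged from -0.0259 to 0.0979 for Hk2, from -0.0183 to 0.11 for Gpi1, from -0.0140 to 0.0360 for Pfkfb2, from -0.0199 to 0.16 for Pfkfb3, from -0.0176 to 0.0429 for Gapdh, from -0.0437 to 0.0915 for Eno1, from -0.0218 to 0.17 for Ldha, from -0.00884 to 0.20 for Pgd and from -0.0340 to 0.0575 for Hif1a. The cause was not tested. Depth bears most on Slc16a3, with 74 to 256 reads in a sample, Slc16a7, with 302 to 612, and Hk2, with 344 to 600.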
